A study of Mus musculus with 3 samples.

Results

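The S100 genes encode small calcium-binding proteins, and 10 of them (S100a1, S100a4, S100a6, S100a8, S100a9, S100a10, S100a11, S100a13, S100a14 and S100a16) were taken by name from the 22378 genes listed for each of 3 pooled mouse RNA-seq libraries, 1 library per group. All 10 had the status OK in every library and stood at 1 FPKM or more in at least 1 library of each pair compared. FPKM counts sequenced fragments relative to the length of the gene and to the mapped total of the library, so levels can be set side by side between genes, while ratios between libraries move with how the libraries are scaled. The first library, LCC (lung-colonizing cells), held mammary cells given intravenously to FVB recipients and recovered by flow sorting from their lungs after 1 day. These cells carried green fluorescent protein, from FVB.GFP females, or the dye DDAO, and 15 experiments, 42 lungs and 455880 cells were pooled, with no gate on EpCAM or CD29. The scheme stated for an experiment was cells of 8 donors into 4 recipients, in 2 injections of 2500000 cells. The 42 lungs pooled are fewer than 4 for each of the 15 experiments, so that scheme does not account for every lung count. The second library, E-Int29-Hi, was a flow-sorted mammary fraction with intermediate surface EpCAM and high surface CD29, a subset labelled as containing the colonizing cells, with 3 samples combined. The third, MG, was labelled both as intact gland that had not been dissociated and as RNA of all breast cells, again with 3 samples combined. All were of FVB background, and neither the age of the mice nor any further treatment was stated in the sources used here. With a single pooled library on each side, no difference can be set against the spread between replicates, and there are no p-values.

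S100 proteins are built from a pair of EF-hand calcium-binding motifs and usually act as dimers. Calcium binding exposes a surface that takes up partner proteins, among them annexins, myosins and ubiquitin ligase components, while S100a10 keeps that surface exposed without calcium. Some members are also released from cells: S100a8 and S100a9 form calprotectin, the main cytosolic protein of neutrophils, and signal through Toll-like receptor 4 and the receptor RAGE. S100a4 is known from fibroblasts, macrophages and motile tumour cells, and S100a14 and S100a16 from epithelia.

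The S100 genes were at their highest in the cells recovered from the lung. Their summed level was 2967 FPKM in LCC, with 610 in E-Int29-Hi and 898 in MG. These were 0.791%, 0.187% and 0.312% of the FPKM of all genes analysed. The sum in LCC was 4.86 times that in E-Int29-Hi and 3.31 times the MG sum, and without S100a6 these ratios were 3.39 and 2.75. The order LCC, then MG, then E-Int29-Hi held for 8 of the 10 genes. The exceptions were S100a1, highest in E-Int29-Hi, and S100a16, whose E-Int29-Hi value stood just above that in MG. S100a10 counts among the 8 on nearly equal values, 224 FPKM in MG and 222 in E-Int29-Hi. In all 3 libraries S100a6, S100a10 and S100a11 were the most abundant members and together made up 89.4%, 77.4% and 82.5% of the S100 sum in LCC, E-Int29-Hi and MG.

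**Figure D1:**
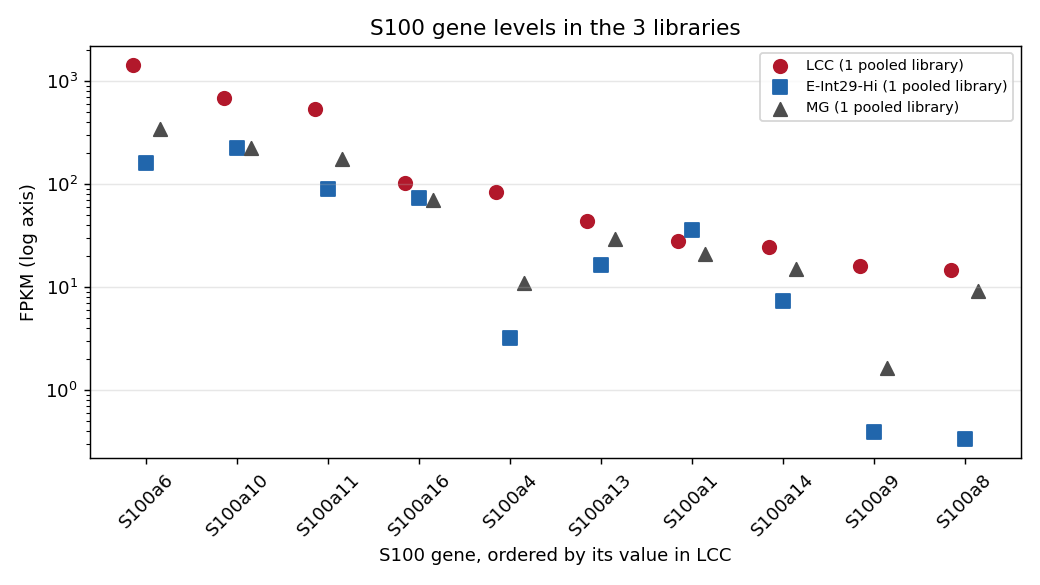
FPKM of each S100 gene (log axis) in the 3 pooled libraries, 1 point per library and no error bars because there is 1 library per group. LCC points lie above the others for every gene but S100a1, and S100a8 and S100a9 span the widest range, with values under 1 FPKM in E-Int29-Hi.

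Differences were measured as the log2 ratio of FPKM values after adding 1 FPKM, which compresses the changes of genes at low FPKM, and a gene was counted as higher or lower at 4-fold or more on that scale. In LCC against E-Int29-Hi, 5 of the 10 genes were higher (S100a4, S100a6, S100a8, S100a9 and S100a11), where 4.64% of 12147 genes were, and 0 were lower, where 4.35% of all genes were. The median S100 gene had a log2 ratio of 2.09 against 0.26 for the median of all genes. In LCC against MG, 3 of 10 were higher (S100a4, S100a6 and S100a9), where 1.33% of 12443 genes were, and 0 were lower, where 2.63% were. Here all 10 ratios were above 0, with a median of 1.15 against 0.01 over all genes. In E-Int29-Hi against MG, 1 of 10 was lower (S100a8), where 3.97% of 12430 genes were, and 0 were higher, where 2.6% were. The median was -0.92 against -0.23 over all genes. Each library enters 2 of these comparisons, so they are not independent of each other. The same shares over all genes are the ones to set beside the counts for the gene lists below.

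**Figure D2:**
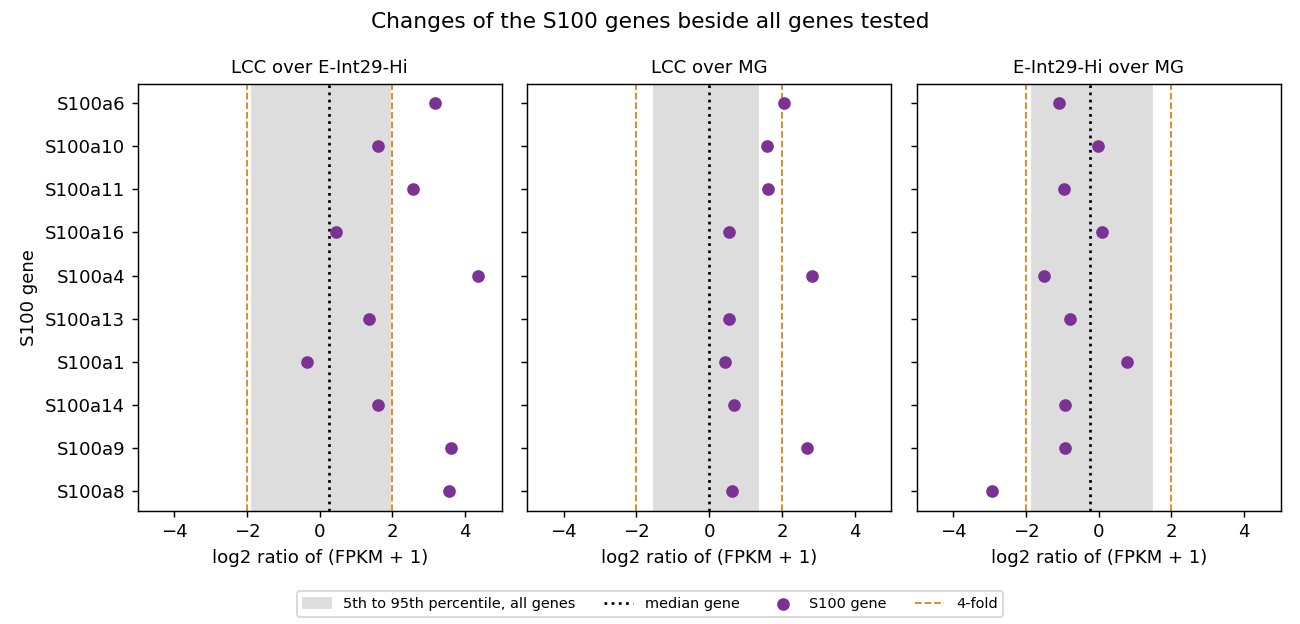
Log2 ratio of (FPKM + 1) for each S100 gene in the 3 comparisons, beside the span from the 5th to the 95th percentile of all genes tested (grey), their median (dotted) and the 4-fold bounds (dashed). In LCC over E-Int29-Hi 5 points lie beyond the 4-fold bound on the right, in LCC over MG 3 do, and in E-Int29-Hi over MG S100a8 alone lies beyond the bound on the left.

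The counts were repeated with the libraries scaled in other ways. The number of S100 genes higher in LCC than in E-Int29-Hi remained 5 with median ratio scaling and with TPM (each library rescaled to the same sum), and S100a6 in LCC against MG fell under 4-fold in TPM (log2 ratio 1.69). Of all genes 4-fold apart between LCC and E-Int29-Hi, 51.6% were higher in LCC as deposited and 39.2% with median ratio scaling. For LCC and MG this share was 33.7% as deposited and 14.6% in TPM, and for E-Int29-Hi and MG it was 39.5%, against 56.6% with median ratio scaling and 27.1% in TPM. Read totals were not given. Among genes below 0.1 FPKM in both libraries of a pair, the most frequent ratio of LCC to E-Int29-Hi was 1.12 (15 of 404 genes), that of LCC to MG 1.17 (18 of 342) and that of E-Int29-Hi to MG 1.05 (129 of 1189), which is too few genes to fix the relative depth, so no counting interval is given.

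S100a4, also called metastasin or fibroblast-specific protein, binds non-muscle myosin and stood at 84.4 FPKM in LCC, with 3.21 in E-Int29-Hi and 11.02 in MG. On the scale with 1 FPKM added it had the largest ratios of the S100 genes, with LCC 20.3-fold above E-Int29-Hi (log2 4.34) and 7.11-fold above MG (log2 2.83). That order depends on the scale. With 0.1 FPKM added, S100a8 (log2 5.08) and S100a9 (5.01) stood above S100a4 (4.67) in LCC over E-Int29-Hi, and S100a9 (3.21) above S100a4 (2.93) in LCC over MG. In TPM S100a9 was again above S100a4 in LCC over MG (2.70 against 2.53). With 1 FPKM added, 44 of 12147 genes had a higher ratio than S100a4 in LCC over E-Int29-Hi and 46 of 12443 in LCC over MG. By level, S100a4 ranked 712th of 22077 genes in LCC, 5083rd in MG and 8332nd in E-Int29-Hi. Its named myosin partner Myh9 stood at 267, 414 and 248 FPKM across LCC, E-Int29-Hi and MG, less than 4-fold apart in each comparison.

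S100a6 (calcyclin), which binds the ubiquitin ligase component Cacybp, was the most abundant member in LCC and MG, at 1439 FPKM in LCC, with 160 in E-Int29-Hi and 342 in MG. In LCC it was the 19th highest of all 22077 genes, in MG the 97th and in E-Int29-Hi the 302nd. LCC stood 8.95-fold above E-Int29-Hi (log2 3.16) and 4.20-fold above MG (log2 2.07), while E-Int29-Hi lay below MG by less than 4-fold (log2 -1.09). Cacybp stood at 49.9, 23.4 and 22.6 FPKM and its partner Sugt1 at 28.5, 7.87 and 12.4 FPKM across LCC, E-Int29-Hi and MG, each less than 4-fold apart. S100a6 made up 48.5%, 26.2% and 38.1% of the S100 sum in LCC, E-Int29-Hi and MG.

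**Figure D3:**
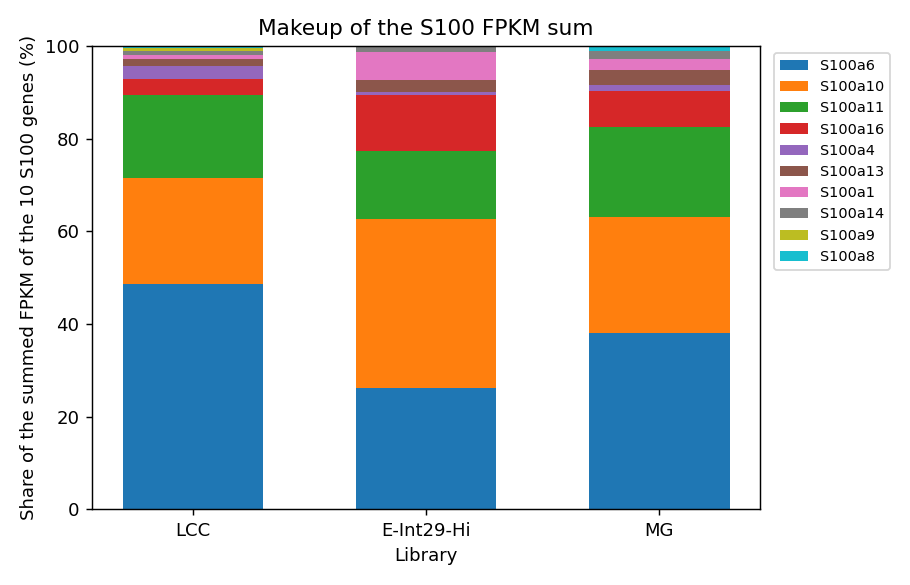
Share of each S100 gene in the summed FPKM of the 10 genes, in percent, for the 3 pooled libraries. S100a6 takes 48.5% of the LCC bar and S100a10 the largest part, 36.5%, of the E-Int29-Hi bar.

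S100a10 (p11), the calcium-insensitive partner of annexin A2 at the plasma membrane, stood at 682 FPKM in LCC, with 222 in E-Int29-Hi and 224 in MG. It was the highest member in E-Int29-Hi, and its levels in E-Int29-Hi and MG were nearly equal (log2 -0.01 as deposited, 0.33 with median ratio scaling). LCC was above both by about the same amount, 3.05-fold and 3.03-fold, short of the 4-fold bound. S100a11 (calgizzarin), a partner of annexin A1, stood at 533 FPKM in LCC, with 89.8 in E-Int29-Hi and 175 in MG. LCC was 5.88-fold above E-Int29-Hi (log2 2.56) and 3.04-fold above MG (log2 1.60). The S100a11 pseudogene, carried in the tables as Gm5068, was listed at 0 in all 3 libraries.

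Several annexin partners were also highest in LCC. Anxa2, which joins S100a10 in a membrane-binding complex, stood at 1140 FPKM in LCC, with 218 in E-Int29-Hi and 377 in MG, so that S100a10 was at 0.598, 1.02 and 0.594 of the Anxa2 level. Anxa1, an anti-inflammatory phospholipid-binding protein, stood at 821 FPKM in LCC, 45.3 in the gated sort and 297 in the gland. Of 13 genes, the annexins together with the scaffold gene Ahnak, 10 could be compared between LCC and E-Int29-Hi, and 4 were higher in LCC (Anxa1, Anxa2, Anxa5 and Anxa8) and 0 lower, with a median log2 ratio of 1.70. Anxa5 stood at 313, 55.03 and 148 FPKM, and Anxa8 at 72.6, 3.88 and 16.7 FPKM. Against MG, 1 of 11, Anxa8 (log2 2.06), was higher in LCC and 0 lower. In E-Int29-Hi against MG, 1 of 11, Anxa1 (log2 -2.69), was lower and 0 higher. Anxa6 went another way, with 105 FPKM in both LCC and E-Int29-Hi and 53.6 in MG.

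**Figure D4:**
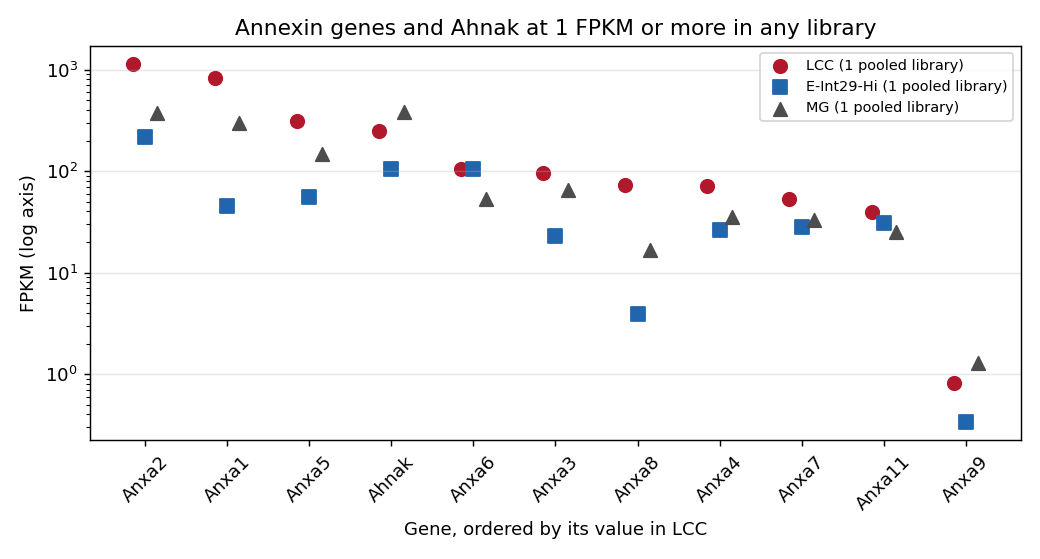
FPKM (log axis) of the annexin genes and Ahnak that reached 1 FPKM in any of the 3 pooled libraries, 1 point per library. LCC is the highest library for Anxa2, Anxa1 and Anxa5, the E-Int29-Hi points for Anxa1 (45.3 FPKM) and Anxa8 (3.88 FPKM) lie far below the others, and Ahnak is highest in MG.

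S100a10 with annexin A2 is also known as a docking site for plasminogen and its activator, and 5 genes of that system were followed. Plau, the urokinase gene, stood at 265 FPKM in LCC, with 34.3 in E-Int29-Hi and 108 in MG. It was the 1 gene of 4 compared that was 4-fold higher in LCC than in E-Int29-Hi. Its receptor gene Plaur stood at 235, 98.9 and 102 FPKM and the protease gene Ctsb at 194, 103 and 151 FPKM. Plat, another plasminogen activator gene, was instead highest in MG, at 59.6, 31.7 and 75.6 FPKM across LCC, E-Int29-Hi and MG. Plg, plasminogen itself, was listed at 0 in all 3 libraries. Between LCC and MG, and between E-Int29-Hi and MG, 0 of 4 were 4-fold apart.

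S100a8 and S100a9, the calprotectin subunits, were the lowest members in LCC, at 14.6 and 15.9 FPKM. Both stood under 1 FPKM in E-Int29-Hi, at 0.336 and 0.397 FPKM, but in MG they parted, with S100a8 at 9.15 and S100a9 at 1.63 FPKM. The S100a8 level was therefore 0.919 of that of S100a9 in LCC and 0.847 of it in E-Int29-Hi, but 5.60 times as high in MG. Against E-Int29-Hi, LCC was 11.7-fold higher for S100a8 (log2 3.55) and 12.1-fold higher for S100a9 (log2 3.60). Against MG, LCC was 6.43-fold higher for S100a9 (log2 2.68) and 1.54-fold higher for S100a8 (log2 0.62). On the scale with 1 FPKM added, S100a8 was the only S100 gene for which E-Int29-Hi was 4-fold below MG (log2 -2.93), where S100a9 had a log2 ratio of -0.91. By plain FPKM, S100a9 in MG was 4.12 times its E-Int29-Hi value. With 5 FPKM added in place of 1, each of these calls for S100a8 and S100a9 fell under 4-fold (log2 1.88 and 1.96 in LCC over E-Int29-Hi, 1.66 for S100a9 in LCC over MG, and -1.41 for S100a8 in E-Int29-Hi over MG).

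Markers of the blood cells in which calprotectin is best known were measured beside it. In bulk RNA, fewer cells of a type and less RNA per cell cannot be told apart. The 17 neutrophil genes summed to 46.9 FPKM in LCC, with 13.1 in E-Int29-Hi and 79.0 in MG. Ltf, the gene of lactoferrin, which mammary epithelium also makes, held 26.9, 9.24 and 73.5 FPKM of these sums. Ly6g was listed at 0 in all 3 libraries. Of the 17, 7 (Ly6g, Ngp, Camp, Mpo, Prtn3, Ctsg and Cxcr2) were at 0 in LCC, against 4 for E-Int29-Hi and 2 for MG. Over all genes, zeros were also most frequent in LCC, at 6819, 4952 and 3163 across LCC, E-Int29-Hi and MG. Itgam, an integrin of neutrophils and macrophages, stood at 10.1, 1.67 and 2.01 FPKM. Fpr2, a formyl peptide receptor, stood at 4.08, 0.139 and 0.850 FPKM. Itgam and Fpr2 were the 2 of 6 genes compared that were 4-fold higher in LCC than in E-Int29-Hi. Trem1 (2.79, 0.0452 and 0.327 FPKM), Fpr1 (1.70, 0.0165 and 0.300 FPKM) and Csf3r (1.15, 0.154 and 0.349 FPKM) were also highest in LCC. Ltf alone of the 6 was highest in MG. The 15 macrophage and monocyte genes summed to 541 FPKM in LCC, with 134 in E-Int29-Hi and 211 in MG, led by Lyz2, lysozyme, at 232, 60.6 and 28.5 FPKM, and 0 of them were listed at 0. Of 12 of them compared, 4 were higher in LCC than in E-Int29-Hi (Ptprc, Itgax, Ear2 and the protease gene Ctss, at 162 against 9.34 FPKM) and 0 lower. Against MG, 4 of 13 were higher (Lyz1, Lyz2, Itgax and Ctss) and 1, the monocyte gene Ly6c2, was lower (1.69 against 13.8 FPKM), and Ly6c1 and Mrc1 had log2 ratios of -1.43 and -1.44. The 10 dendritic cell genes summed to 235, 40.1 and 69.8 FPKM, with Cd209a at 0 in LCC. Of 6 compared, 4 were higher in LCC than in E-Int29-Hi, namely the chemokine genes Ccl17 (log2 4.59) and Ccl22 (4.26), the interleukin gene Il12b (4.56) and the chemokine receptor gene Ccr7 (3.22). Of these, Ccl17, Ccl22 and Il12b were also higher than in MG, 3 of 6 compared, and 0 were lower in either comparison. The part of these cells in the S100a4, S100a8 and S100a9 values was not tested.

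Markers of other cell types also differed between the libraries. The 12 fibroblast genes summed to 1629 FPKM in LCC, with 156 in E-Int29-Hi and 3296 in MG, with Col1a1 at 427, 15.9 and 598 FPKM. Mfap5 alone of these genes was highest in LCC, at 172, 3.49 and 87.0 FPKM across LCC, E-Int29-Hi and MG, and the others were highest in MG. S100a4, which is known from fibroblasts, was 7.66 times as high in LCC as in MG by plain FPKM. The 14 luminal mammary genes summed to 4887, 340 and 2845 FPKM and the 11 basal ones to 720, 8556 and 630 FPKM. The luminal sum in LCC was mostly that of the keratin genes Krt18 (2368 FPKM) and Krt8 (1258 FPKM). Of the 14 luminal genes, 8 were higher in LCC than in E-Int29-Hi and 0 lower, but Elf5, Esr1 and Pgr, which encode luminal transcription factors and hormone receptors, had log2 ratios of -0.99, -1.23 and -1.38. Against MG, 0 of 14 were higher in LCC and 4 (Elf5, Esr1, Pgr and the prolactin receptor gene Prlr) were lower, with a median log2 ratio of -1.06. All 11 basal genes were 4-fold lower in LCC than in E-Int29-Hi. The 10 lung epithelium genes summed to 645 FPKM in LCC, with 13.1 in E-Int29-Hi and 9.31 in MG. Scgb1a1, the club cell secretoglobin, a gene outside the mammary label of LCC, held 572 FPKM of the LCC sum. Scgb3a2 and Nkx2-1 stood at 13.6 and 0.177 FPKM in LCC and at 0 in both others. Foxj1 was highest in E-Int29-Hi (3.69, 7.75 and 1.33 FPKM across LCC, E-Int29-Hi and MG) and Hopx in MG (4.17, 1.27 and 6.13 FPKM). Endothelial genes summed to 115, 113 and 548 FPKM, erythroid ones to 62.25, 3.44 and 50.8 FPKM, and nerve sheath ones to 47.1, 106 and 156 FPKM. Lymphocyte genes summed to 5.39, 3.13 and 12.0 FPKM, skin keratinocyte genes to 4.21, 2.18 and 9.45 FPKM, and adipocyte genes to 0.53, 2.53 and 29.7 FPKM. Of these 6 lists, the erythroid one alone was highest in LCC. The part of any of these cells in the S100 differences was not tested.

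**Figure D5:**
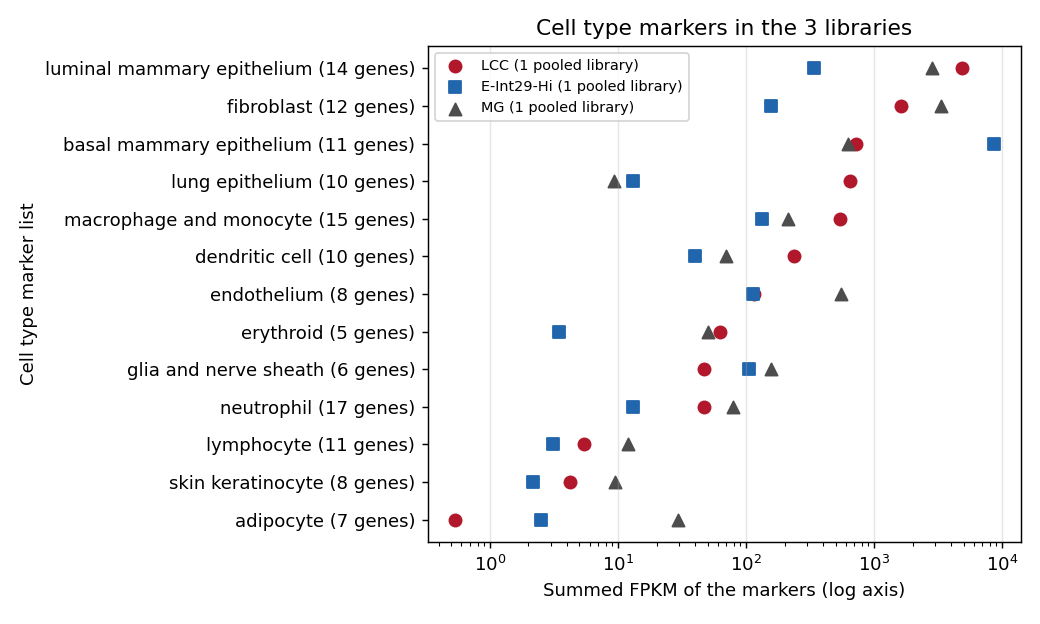
Summed FPKM (log axis) of the marker genes of 13 cell types in the 3 pooled libraries, with the number of genes found for each list. Basal markers are highest in E-Int29-Hi (8556 FPKM), fibroblast markers lowest there (156 FPKM), and lung epithelium markers stand at 645 FPKM in LCC against 13.1 and 9.31 FPKM in E-Int29-Hi and MG.

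The genes of the known receptors of released S100 proteins were not all highest in the same library. Together with the adaptor gene Myd88, their median log2 ratio was 0.96 in LCC over E-Int29-Hi, where that of all genes was 0.26. It was -0.42 in LCC over MG and -0.99 in E-Int29-Hi over MG, where those of all genes were 0.01 and -0.23. Of those compared between LCC and E-Int29-Hi, Myd88 alone had a log2 ratio below 0 (-1.75). Myd88 stood at 10.6, 38.0 and 24.1 FPKM across LCC, E-Int29-Hi and MG. Ager, the RAGE gene, which lung alveolar type I cells also express strongly, stood at 7.44 FPKM in LCC, with 1.14 in E-Int29-Hi and 1.11 in MG, just past 4-fold against MG (log2 2.002) and just short of it against E-Int29-Hi (log2 1.978). Tlr4 was highest in MG, at 7.68 FPKM against 2.88 in LCC and 0.881 in E-Int29-Hi. Its co-receptor gene Cd14 was ordered the same way, at 130, 51.1 and 15.96 FPKM in MG, LCC and E-Int29-Hi, whereas Ly96, which encodes the MD-2 subunit, stood at 11.1 in LCC, 1.97 in E-Int29-Hi and 6.76 FPKM in MG. Of 8 receptor and adaptor genes compared, 1, Ly96, was higher in LCC than in E-Int29-Hi and 1, Ager, higher than in MG, with 0 lower in either. In E-Int29-Hi against MG, 3 of 8 were lower (Tlr4, Cd14 and Cd36, the scavenger receptor, at 30.9 against 152 FPKM) and 0 higher. Bsg, basigin, was the most abundant of them in LCC at 133 FPKM, with 89.0 in E-Int29-Hi and 101 in MG.

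S100a1 and S100a13 are neighbours on chromosome 3 that are transcribed away from each other, and their levels were ordered differently over the 3 libraries. S100a1, a regulator of calcium cycling best known from heart muscle, stood at 28.3 FPKM in LCC, with 36.1 in E-Int29-Hi and 20.8 in MG. S100a13, which takes part in the release of Fgf1 and interleukin 1 alpha from cells, stood at 43.4, 16.5 and 29.5 FPKM. S100a13 was thus at 1.53 times the S100a1 level in LCC and 1.42 times in MG, but at 0.457 of it in E-Int29-Hi. Neither gene was 4-fold apart between libraries: in LCC over E-Int29-Hi the log2 ratio was -0.34 for S100a1 and 1.34 for S100a13. In E-Int29-Hi over MG these log2 ratios were 0.77 and -0.80, while in LCC over MG both were above 0, at 0.43 and 0.54. In the RefSeq gene table (GRCm38.p6) the span of S100a13 begins before the start site used for its window, inside the span of S100a1, so the spans overlap, and strand use in counting was not stated in the sources used here, so reads from the overlap cannot be told apart. The window of S100a13 from 250 bases before to 50 bases after its start, chr3:90514185-90514484 on the plus strand, shares 204 bases with that of S100a1. It is shown with the 104 bases between both starts in capitals, since the S100a1 start site is the base before the capitals, with the gene running to the left, and the S100a13 start site of this window is the base after them, with the gene running to the right.
S100a1 and S100a13: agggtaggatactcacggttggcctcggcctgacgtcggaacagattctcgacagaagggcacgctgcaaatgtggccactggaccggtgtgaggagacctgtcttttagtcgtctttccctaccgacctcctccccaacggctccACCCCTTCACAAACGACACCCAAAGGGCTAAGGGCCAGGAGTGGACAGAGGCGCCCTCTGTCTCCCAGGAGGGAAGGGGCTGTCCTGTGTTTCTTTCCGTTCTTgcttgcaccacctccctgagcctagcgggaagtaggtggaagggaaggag

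Among the partners that S100a1 and S100a13 are known to bind, Atp2a2, the calcium pump SERCA2, stood at 58.2 FPKM in LCC, with 268 in E-Int29-Hi and 101 in MG. It was 4-fold lower in LCC than in E-Int29-Hi (log2 -2.18). Fgf1 was also lower (log2 -2.22), at 0.576, 6.36 and 0.888 FPKM. Il1a stood at 17.0, 0.943 and 4.95 FPKM, 4-fold higher in LCC than in E-Int29-Hi (log2 3.21). Of 14 intracellular partners of S100 proteins compared between these libraries, 3 were higher in LCC (Il1a and the NADPH oxidase genes Cybb, at 15.7 against 1.92 FPKM, and Ncf1, at 7.44 against 0.750 FPKM) and 2 lower. Against MG, 1 of 12, Ncf1 (log2 2.01), was higher in LCC and 0 lower. In E-Int29-Hi against MG, 0 of 14 were 4-fold apart.

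S100a14 and S100a16, both known from epithelia, were less than 4-fold apart in each comparison. S100a14 stood at 24.8 FPKM in LCC, with 7.40 in E-Int29-Hi and 15.0 in MG, with LCC 3.07-fold above E-Int29-Hi. S100a16 stood at 102, 74.0 and 69.6 FPKM. Its log2 ratios were 0.46, 0.55 and 0.09 for LCC over E-Int29-Hi, LCC over MG and E-Int29-Hi over MG, and the last was -0.09 in TPM. Of the 6 other S100 genes found by name, S100a7a (3.25, 1.56 and 2.32 FPKM across LCC, E-Int29-Hi and MG), S100a3 (0.622, 0.595 and 2.44 FPKM) and S100g (1.61, 0 and 0.869 FPKM) reached 1 FPKM in any library. S100b, a glial and nerve sheath gene, was listed at 0 in LCC and stood at 0.0872 and 0.971 FPKM in E-Int29-Hi and MG. S100z was listed at 0 in every library. Of these 6 genes, 2 could be compared between LCC and E-Int29-Hi, 3 between LCC and MG and 2 between E-Int29-Hi and MG, and 0 were 4-fold apart. S100a5, S100b and S100z were under 1 FPKM in all libraries and so were not compared. The 7 fused-type S100 genes, such as Flg, filaggrin, and Tchh, trichohyalin, stood under 1 FPKM throughout, with Tchh the highest at 0.129, 0.610 and 0.773 FPKM.

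All 10 genes lie on chromosome 3 in the RefSeq table, whose build (GRCm38.p6) is not that of the authors' tables, so it was used for order and sequence only. From one end of the cluster the order among them is S100a1, S100a13, S100a14, S100a16, S100a4, S100a6, S100a8 and S100a9, followed at a distance by S100a11 and S100a10. Counting only these 10 members, the genes 4-fold higher in LCC than in E-Int29-Hi followed one another in this order (S100a4, S100a6, S100a8, S100a9 and, at a distance, S100a11). The first 4 in the order and S100a10, the last, did not reach 4-fold. S100a3, which the table places between S100a16 and S100a4, and S100a5, placed between S100a4 and S100a6, stood under 1 FPKM in LCC. S100a5 thus interrupts the run, as do S100a7a, placed between S100a6 and S100a8, and S100a7l2, placed between S100a9 and S100a11. S100a7a stood at 3.25 FPKM in LCC and 1.56 in E-Int29-Hi (log2 0.73), so it was not 4-fold higher. S100a7l2 was not among the genes followed here. Start-site windows from 250 bases before to 50 bases after the start were given for 8 of the 10 genes, not for S100a10 and S100a14. Those of 4 genes higher in LCC are shown, 5′ to 3′ on the gene's own strand, because they hold motifs found in the search, in capitals. They are S100a4 at chr3:90603520-90603819 (plus strand), S100a8 at chr3:90668821-90669120 (plus), S100a9 at chr3:90695672-90695971 (minus) and S100a11 at chr3:93520246-93520545 (plus), from RefSeq, GRCm38.p6.
S100a4: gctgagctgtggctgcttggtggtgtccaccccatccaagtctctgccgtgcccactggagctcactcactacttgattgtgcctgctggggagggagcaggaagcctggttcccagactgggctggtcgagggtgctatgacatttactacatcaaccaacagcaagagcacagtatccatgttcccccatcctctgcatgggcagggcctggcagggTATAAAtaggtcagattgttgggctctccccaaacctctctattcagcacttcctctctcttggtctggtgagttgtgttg
S100a8: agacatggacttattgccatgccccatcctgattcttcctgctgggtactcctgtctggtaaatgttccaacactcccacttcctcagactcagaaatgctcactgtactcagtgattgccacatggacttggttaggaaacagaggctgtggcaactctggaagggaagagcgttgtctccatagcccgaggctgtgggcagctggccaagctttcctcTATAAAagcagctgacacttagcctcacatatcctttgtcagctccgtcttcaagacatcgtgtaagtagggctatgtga
S100a9: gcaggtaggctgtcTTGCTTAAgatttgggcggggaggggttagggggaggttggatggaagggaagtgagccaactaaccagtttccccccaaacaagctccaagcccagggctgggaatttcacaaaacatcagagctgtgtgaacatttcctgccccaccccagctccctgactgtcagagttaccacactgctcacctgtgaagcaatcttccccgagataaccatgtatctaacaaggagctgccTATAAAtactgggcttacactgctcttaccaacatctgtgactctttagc
S100a11: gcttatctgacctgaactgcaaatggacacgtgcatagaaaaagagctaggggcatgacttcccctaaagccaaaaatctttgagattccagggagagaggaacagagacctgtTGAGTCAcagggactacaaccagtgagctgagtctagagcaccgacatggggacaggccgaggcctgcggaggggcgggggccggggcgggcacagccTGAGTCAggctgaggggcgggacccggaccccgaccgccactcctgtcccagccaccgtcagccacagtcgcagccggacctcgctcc

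The search covered both strands for the TATA box TATAAA, the AP-1 element TGANTCA and the C/EBP element TTGCNNAA, which do not overlap one another in these windows. TATAAA began 31 bases before the start of S100a4 and 30 bases before that of S100a8, and 1.99% of 32851 start-site windows hold it on the gene's strand 20 to 40 bases before the start. In S100a9 the same letters began at the first transcribed base of the table's start, and TTGCNNAA began 236 bases before it. S100a11 held TGANTCA at 136 and at 38 bases before the start. Anywhere in the window and on either strand, TATAAA was in 13.6% of all windows, TGANTCA in 7.81% and TTGCNNAA in 10.8%. The S100a6 window held none of the 3 motifs, and neither did those of S100a1 and S100a13, while 1 of the S100a16 windows held TGANTCA. A match is a description of these letters and not a measured site.

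For the 5 genes 4-fold apart in any comparison, the genes with the most similar profile over the 3 libraries were found among the 6793 genes that reached 10 FPKM in any library, by the distance between centred log2(FPKM + 1) values. Only 3 libraries define a profile, so many genes lie close. Nearest to S100a4 were Akr1b8, an aldo-keto reductase (44.6, 1.20 and 5.73 FPKM across LCC, E-Int29-Hi and MG, distance 0.07), Mmp10, a matrix metalloproteinase (distance 0.09), and Cd207, the langerin gene of Langerhans cells (distance 0.20). S100a9 was nearest to Cd52, a leukocyte surface antigen (31.4, 1.48 and 3.92 FPKM, distance 0.08), Gpnmb (0.19) and Bdkrb1, a bradykinin receptor (0.19). For S100a8 the nearest were Sod3, extracellular superoxide dismutase (20.1, 0.907 and 13.1 FPKM, distance 0.06), Zeb2, a mesenchymal transcription factor (0.06), and Ptgis, prostacyclin synthase (0.15). S100a6 was nearest to Ormdl2 (0.05), Adam12 (0.08) and the chemokine receptor gene Ccr7 (0.09), and S100a11 to Asnsd1 (0.05), Cybb (0.06) and Cd83 (0.07), a marker of mature dendritic cells. Among the S100 genes alone, the nearest lay at 0.56 for S100a4 (S100a9) and 0.45 for S100a6 (S100a9), S100a9 (S100a6) and S100a11 (S100a6). For S100a8 it lay at 1.37 (S100a6). Far fewer genes were searched there than the 6793 above, so the nearest is almost bound to be farther away and nothing is concluded from that.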

How the data were processed

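Poly(A) RNA was isolated on poly-T beads and sequenced as TruSeq libraries, per the labels' protocols. For each library the authors deposited a table of FPKM values, with a status word for every gene. The submitters' processing notes name TopHat 1.4.1, Cufflinks 1.3.0 and mm9 but not what each was used for. Read totals and annotation release are not given in the sources used here. Genes with status OK in all 3 libraries (22188 of 22378) were used, and the highest model per name was kept (22077 names). Ratios of FPKM + 1 were taken on the log2 scale where either library reached 1 FPKM, and calls were made at 4-fold. The computation was tested on simulated data. No test was possible with single pools, which give no error between animals. The S100 genes were given by name, and members and lists were chosen with earlier results of these data known. Text names all members, list genes 4-fold apart and up to 3 of the highest per list, with examples where a list is long. The list genes S100a2, Myh10 and Cyba were not analysed here. Where a list symbol was absent, the model with that current symbol stood in, using a table that matched 20773 identifiers. Alternatives were pseudocounts of 0.1 and 5 FPKM, no filter or one at 5 FPKM, median ratio scaling, TPM, summed models and every status. Python 3.11.15, numpy 2.4.6, pandas 2.3.3 and matplotlib 3.10.9 were used.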

Additional observations from a re-analysis of the deposited data

How the results depend on the processing

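Over 8 alternatives, 232 of 239 values of single S100 genes kept both their direction and their side of the 4-fold bound. Many of these were fixed in advance. Each S100 gene had 1 model with status OK, so the filters, summed models and every status could not alter its value. Only the pseudocounts, median ratio scaling and TPM could, and all the changes came from them. S100a9 in E-Int29-Hi over MG gave no value with the filter at 5 FPKM. The 5 that dropped under 4-fold are S100a6 in TPM (LCC over MG) and the S100a8 and S100a9 values with 5 FPKM added, as given above. Sign changes were seen for S100a10 (0.33 with median ratio scaling) and S100a16 (-0.09 in TPM), both in E-Int29-Hi over MG. With 5 FPKM added, 3 S100 genes were higher in LCC than in E-Int29-Hi and 0 were below MG in E-Int29-Hi. In TPM, 2 S100 genes were higher in LCC than in MG. Over all genes, a pseudocount of 0.1 FPKM gave 1128 higher and 947 lower in LCC over E-Int29-Hi, 334 and 815 in LCC over MG, and 521 and 1089 in E-Int29-Hi over MG, and one of 5 FPKM gave 209 and 235, 71 and 95, and 138 and 159. In TPM, 942, 919 and 1011 genes were lower. A larger pseudocount shrinks low genes by construction, and TPM rescaling raises every value. No paired analysis was possible because there is 1 library per group, and no library could be left out for the same reason. The depth behind values under 1 FPKM is unknown.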

Other observations

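Other small EF-hand proteins were followed beside the S100 genes. Of 22 such genes compared, 1, Cib1, an integrin-binding calcium protein, was 4-fold higher in LCC than in E-Int29-Hi (44.8 against 5.02 FPKM) and 0 were lower. Over all genes 4.64% were higher and 4.35% lower. The list's median log2 ratio was 0.18 against 0.26 over all genes. Cib1 was also higher in LCC than in MG (7.84 FPKM), where Efhd1, a mitochondrial calcium sensor, was lower (2.23 against 12.3 FPKM), 1 of 22 in each direction. Over all genes 1.33% were higher and 2.63% lower there. Nothing is read from counts of 1 gene beside such shares. In E-Int29-Hi against MG, 0 of 23 were 4-fold apart, where 2.6% of all genes were higher and 3.97% lower. In each library the same 4 of these genes were the most abundant. Capns1, the small calpain subunit, stood at 329, 416 and 196 FPKM across LCC, E-Int29-Hi and MG. Efhd2, an actin-binding calcium sensor, stood at 171, 578 and 160 FPKM and Calm2, a calmodulin gene, at 128, 202 and 114 FPKM, so these 3 were highest in E-Int29-Hi. Calu, calumenin of the secretory pathway, was highest in LCC, at 190 FPKM, with 179 in E-Int29-Hi and 137 in MG.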
